A study of Mus musculus with 8 samples.

Results

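The genes described here are 10 regulators of muscle gene activity that are linked to the loss of nerve input: the class IIa histone deacetylase genes Hdac4, Hdac5, Hdac7 and Hdac9, the corepressor gene Dach2, the MEF2 genes Mef2a, Mef2c and Mef2d, the transcription factor gene Runx1 and the sarcomere gene Ky. They were chosen by name. A gene was measured through a probe set annotated to it alone, the brightest on average if it had several. All 10 were found among 14860 genes measured in this way, each with 1 such probe set.

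The study asked which mRNAs of skeletal muscle differ when ATF4 is overexpressed. Right tibialis anterior muscles of male C57BL/6 mice aged 8 weeks were electroporated with 25 µg of pCMV-ATF4-FLAG, a plasmid that expresses FLAG-tagged mouse ATF4 from the cytomegalovirus promoter. Left muscles of the same mice received 25 µg of the empty plasmid pcDNA3, so both groups carry plasmid DNA and the injury of electroporation, and plasmid and leg side cannot be told apart. RNA was taken from fed mice on day 11 and measured on exon arrays, 4 with ATF4 and 4 with empty vector, as 1 array of each in each of 4 experiments. Whole muscle was used, and the labels do not give the share of fibres that took up the plasmid, nor how many mice made up an experiment, so p-values measure the spread between experiments whatever it contains.

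Class IIa histone deacetylases have little enzyme activity of their own and act as signal-controlled repressors. They bind MEF2 factors on the DNA and keep MEF2 target genes silent until calcium-dependent kinases phosphorylate them and drive them out of the nucleus. In denervated muscle of mice, Hdac4 and Hdac5 repress Dach2, which itself represses Myog, and the myogenin protein made from Myog then turns on acetylcholine receptor and atrophy genes. Runx1 is a DNA-binding factor that rises in denervated muscle and limits its wasting. Ky encodes a transglutaminase-like protein of the Z-disc, and its loss in mice leads to kyphoscoliosis.

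To show what regulatory sequence these genes carry, the RefSeq windows from 250 bases before to 50 bases after each annotated start were searched (build GRCm38.p6, both strands). All 10 genes had at least 1 such window, 18 in all. The MEF2 motif, a match to the consensus site of that name, was in 2 of the 18 windows and in 3.19% of the 32851 windows of all genes. It lay in the windows of Hdac5 and Mef2a, which are shown with the motif in capitals and written 5′ to 3′ on the gene's own strand. The Hdac5 window is chr11:102230123-102230422 on the minus strand and the Mef2a window chr7:67372809-67373108 on the minus strand.
Hdac5: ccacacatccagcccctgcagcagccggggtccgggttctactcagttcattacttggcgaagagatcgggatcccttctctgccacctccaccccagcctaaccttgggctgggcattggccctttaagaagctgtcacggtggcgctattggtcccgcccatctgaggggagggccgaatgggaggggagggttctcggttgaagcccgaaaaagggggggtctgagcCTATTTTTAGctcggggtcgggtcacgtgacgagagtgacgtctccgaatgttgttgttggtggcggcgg
Mef2a: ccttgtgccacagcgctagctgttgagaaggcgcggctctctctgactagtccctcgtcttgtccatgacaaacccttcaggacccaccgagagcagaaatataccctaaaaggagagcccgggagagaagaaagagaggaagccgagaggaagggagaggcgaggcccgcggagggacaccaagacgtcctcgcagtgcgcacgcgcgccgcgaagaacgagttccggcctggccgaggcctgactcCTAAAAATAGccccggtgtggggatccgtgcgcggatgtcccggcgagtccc

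In Hdac5 the motif began 20 bases before the start, and in Mef2a 2 bases before it. The RUNX core TGTGGT, found in 16.8% of all windows, was in 2 of the 18. Runx1 itself held it at 2 places on the opposite strand in the window of its more upstream start. Both lay after that start, from bases 29 and 37. This window, chr16:92826025-92826324 on the minus strand, is shown here with the core in capitals since Runx1 had the largest difference of the 10 genes.
Runx1: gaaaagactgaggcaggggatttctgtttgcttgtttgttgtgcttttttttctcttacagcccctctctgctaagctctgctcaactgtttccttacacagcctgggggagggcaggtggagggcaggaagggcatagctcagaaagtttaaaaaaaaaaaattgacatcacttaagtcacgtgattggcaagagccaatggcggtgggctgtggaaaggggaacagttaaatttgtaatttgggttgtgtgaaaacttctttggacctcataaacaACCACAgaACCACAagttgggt

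The E-box CAGCTG was in 3 of the 18 windows, 2 of Hdac9 and 1 of Hdac7, and in 16.3% of all windows. The core TGATGNAA of the elements that ATF4 binds together with C/EBP factors was in 0 of the 18 windows and in 3.97% of all. The palindrome TGACGTCA was also in 0 of the 18, and in 1.79% of all. These counts describe the letters of the windows only.

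The data are log2 RMA values of 16755 probe sets, and every difference below is the log2 signal with ATF4 minus that with empty vector, with n = 4 pairs. The tool for all adjusted p-values was limma, corrected by Benjamini-Hochberg over all probe sets, at a threshold of 0.05. A probe set annotated to Atf4 differed by 0.18 (SE 0.11, adjusted p = 0.846), so the transfected gene gave no check of the labels. The part of the transcript that these probes read is not stated in the labels. The 16 measured markers of muscle fibres were all at or above the 97.5 percentile of probe set signals. With ATF4, 1 of the 16 was higher and 15 were lower, where 54.5% of all genes were higher. Their median difference was -0.05, and 0 passed the threshold or had an unadjusted limma p under 0.05. Their mean differed by 0.03, -0.05, -0.05 and -0.15 in experiments 1 to 4.

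None of the 10 genes passed the threshold. Over all probe sets 3 of 16755 passed, or 0.0179%. At an unadjusted p under 0.05 there was 1 of the 10, Runx1, against 3.23% of all probe sets in the same direction. Mean differences were above 0 for all 10 genes and for 54.5% of the 14860 genes, but for only 6 of 10 when each array was centred on its median, where Hdac7, Dach2, Mef2a and Ky turned negative. The median difference of the 10 was 0.06, against 0.02 over all genes, and the median absolute difference was 0.06, against 0.11 over all genes. By experiment, the median over all genes was -0.01, 0.0016, 0.01 and 0.08, and in experiment 4 57.4% of genes were higher. The array median of that experiment was 4.29 (SD 1.31) with empty vector and 4.44 (SD 1.14) with ATF4. Differences in experiment 4 are to be read beside this shift, and its part in them was not tested. Only Runx1 and Hdac5 were higher in 4 of 4 experiments, where 8.35% of all genes were. The remaining 8 genes, Mef2d among them, had both signs over the experiments, as did 85.0% of all genes.

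**Figure D1:**
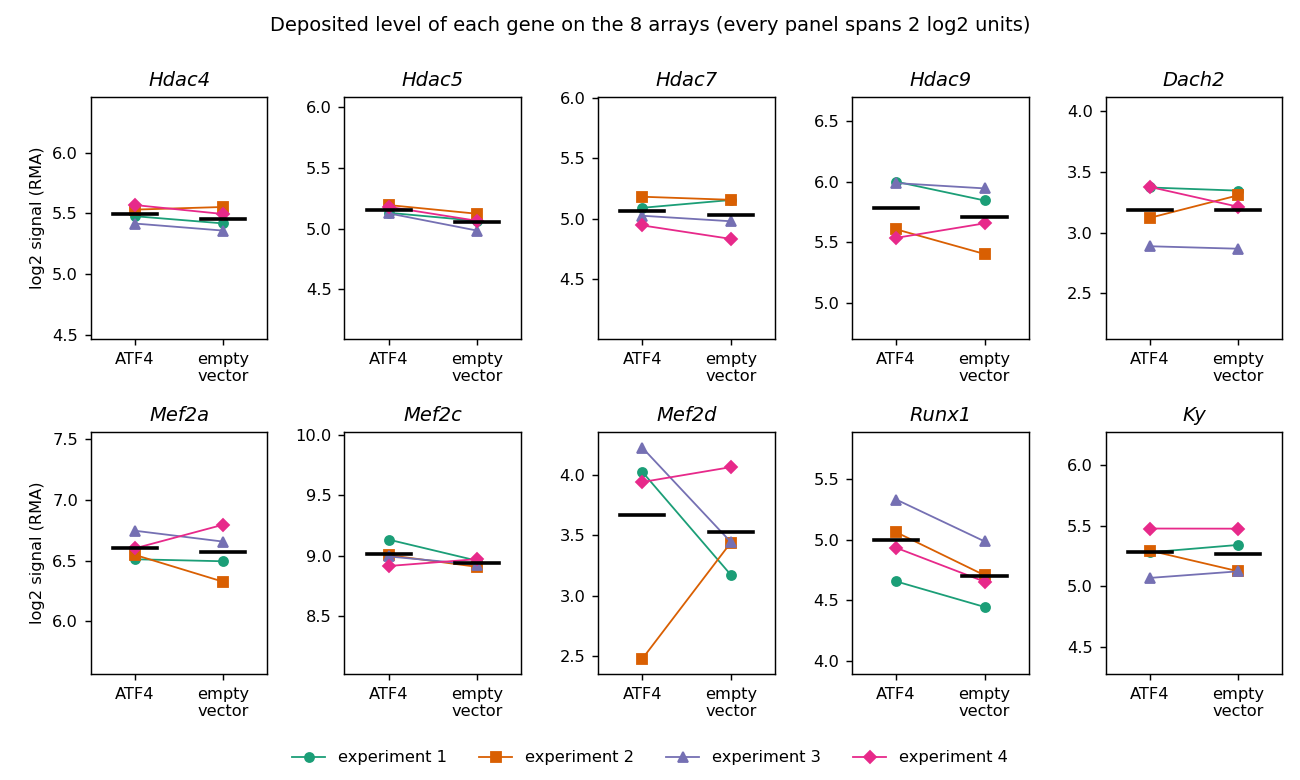
Log2 RMA signal of the 10 genes on the 8 arrays, ATF4 at the left of each panel and empty vector at the right, with a line joining the 2 arrays of an experiment and a black bar at the group mean. Every panel spans 2 log2 units around its own gene: the ATF4 point of Runx1 is above its partner in each experiment, and Mef2d has 1 ATF4 array at 2.48.

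Runx1 had the smallest p-value of the 10 genes. Its signal was 4.66, 5.06, 5.33 and 4.93 in the ATF4 muscles of experiments 1 to 4, against 4.45, 4.71, 4.99 and 4.65 in the empty vector muscles. Each ATF4 muscle was above its own partner, while the groups overlapped, the level differing more between experiments than between legs. The differences were 0.21, 0.35, 0.35 and 0.28 in experiments 1 to 4. Group means were 4.996 ± 0.28 with ATF4 and 4.70 ± 0.22 with empty vector (SD, n = 4 each), a difference of 0.30 (SE 0.11) or 1.23-fold with a 95% interval from 1.04 to 1.46. It did not pass (limma adjusted p = 0.787), nor under any of the 13 alternative fits (adjusted p from 0.386 to 1). The unadjusted p was 0.0243, and without experiment 3 or without the pairing Runx1 was no longer under 0.05 before adjustment.

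Runx1 is also a gene of blood cells, so markers of macrophages and other leukocytes are given beside it. Of 14 measured markers 11 were higher and 3 lower with ATF4. At an unadjusted limma p under 0.05, 2 were higher and 0 lower, against 3.23% and 2.77% of all probe sets. The marker mean was 6.06, 6.20, 6.74 and 5.56 in the ATF4 muscles of experiments 1 to 4, against 5.78, 5.81, 6.69 and 5.67 in the empty vector muscles. Both Runx1 and the marker mean were highest in experiment 3, in either leg. The marker mean differed by 0.28, 0.38, 0.05 and -0.10 in experiments 1 to 4, and the part of leukocytes in the Runx1 difference was not tested. Summed on the linear scale, the markers ranged from 882 to 2300 with ATF4 and from 1020 to 2247 with empty vector. These ranges overlapped, but they ignore the pairing and hold the spread between experiments. In whole muscle, a change in the number of cells of a type and a change in RNA per cell cannot be told apart.

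**Figure D2:**
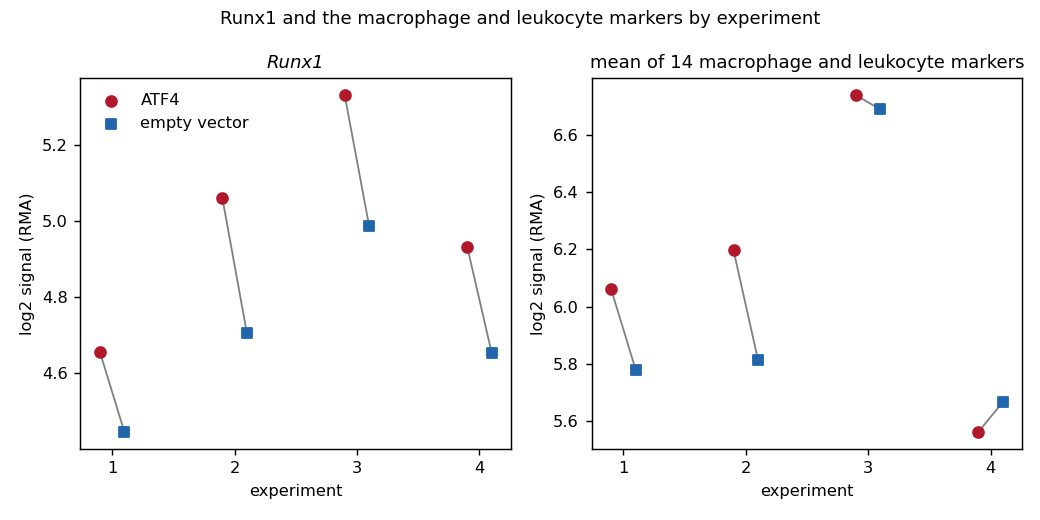
Log2 RMA signal by experiment, for Runx1 (left) and for the mean of 14 macrophage and leukocyte markers (right), with ATF4 as red circles and empty vector as blue squares. Runx1 was higher with ATF4 in all 4 experiments, whereas the marker mean was higher in experiments 1, 2 and 3 and lower in experiment 4.

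The partners of Runx1 showed no shared direction. Of 9 measured genes of the RUNX family and its cofactors 4 were higher and 5 lower, with a median of -0.01, and 0 passed the threshold or had an unadjusted p under 0.05. Those of smallest p were Runx1t1, which encodes a corepressor, at 0.25 (SE 0.15), its relative Cbfa2t2 at -0.21 (SE 0.17), and the Groucho-family corepressor genes Tle3 at -0.08 (SE 0.12) and Tle1 at -0.08 (SE 0.11). The closest match to the 4 differences of Runx1 among the other 14859 genes was Lrrc15, at a root mean square distance of 0.02, followed by Nefl at 0.04 and by Aldh1l2, Lrrc46 and Ttf2 at 0.06 each. Of these, Nefl encodes a neurofilament subunit and Aldh1l2 a mitochondrial folate enzyme, and all 5 were higher in 4 of 4 experiments, which follows from choosing them by likeness to Runx1. Most were dim: Lrrc15, Ttf2, Nefl and Aldh1l2 lay at the 7.2, 18.4, 23.9 and 30.3 percentile of probe set signals. Lrrc46 lay at 76.9 and Runx1 at 68.9.

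The class IIa deacetylase genes differed by 0.03 to 0.10 between the legs, and none of the 4 passed. Hdac4, the deacetylase most closely tied to denervation, had signals of 5.48, 5.53, 5.42 and 5.57 in the ATF4 muscles and 5.42, 5.55, 5.36 and 5.49 in the empty vector muscles. The groups overlapped, and ATF4 was higher in experiments 1, 3 and 4 and lower in experiment 2. The difference was 0.04 (SE 0.11, limma adjusted p = 0.962), and its 95% interval in fold terms ran from 0.870 to 1.22. It was 0.03 without experiment 4 and 0.06 without experiment 2.

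Hdac5, which acts with Hdac4 on the same targets, was the single gene of the 10 whose groups did not overlap. It stood at 5.13, 5.19, 5.13 and 5.18 in the ATF4 muscles, against 5.06, 5.12, 4.98 and 5.06 in the empty vector muscles. The lowest ATF4 value thus lay just above the highest empty vector value, a pattern that 1.47% of all genes showed in this direction. The difference was small, at 0.10 (SE 0.11) or 1.07-fold, and did not pass (limma adjusted p = 0.892; from 0.793 to 1 under the alternatives). Its differences of 0.07, 0.07, 0.14 and 0.12 in experiments 1 to 4 varied by an SD of 0.036. The SE of limma is larger than that spread alone would give, because it draws each variance towards that of probe sets of similar signal.

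Hdac7, known best from endothelial cells and thymocytes, had signals of 5.09, 5.18, 5.03 and 4.95 in the ATF4 muscles and 5.16, 5.16, 4.98 and 4.83 in the empty vector muscles. The 2 legs ran in parallel, with the lowest value of either group in experiment 4, and the difference was 0.03 (SE 0.11, limma adjusted p = 0.975). It was 0.0022 without experiment 4 and 0.06 without experiment 1. Of 12 endothelial markers 3 were higher and 9 lower, and their mean differed by -0.02, -0.11, -0.22 and 0.12 in experiments 1 to 4, where Hdac7 differed by -0.06, 0.03, 0.05 and 0.11. The part of these cells in the Hdac7 signal was not tested.

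Hdac9, which in muscle is under the control of MEF2 and of nerve activity, varied more between experiments. It had signals of 6.00, 5.61, 5.99 and 5.54 in the ATF4 muscles and 5.84, 5.40, 5.94 and 5.66 in the empty vector muscles. Experiments 1 and 3 were high in both legs and experiments 2 and 4 low. The difference was 0.07 (SE 0.11, limma adjusted p = 0.932), positive in experiments 1 to 3 and negative in experiment 4. It was 0.03 without experiment 2 and 0.13 without experiment 4.

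Dach2, the corepressor that Hdac4 and Hdac5 shut off after denervation in mice, had the smallest difference of the 10. Signals were 3.37, 3.12, 2.89 and 3.38 in the ATF4 muscles and 3.35, 3.31, 2.87 and 3.21 in the empty vector muscles. The groups overlapped almost completely, and both had their lowest value in experiment 3. The difference was 0.0061 (SE 0.14, limma adjusted p = 0.997), with an interval in fold terms from 0.807 to 1.25. Only 10.5% of probe sets were as dim or dimmer, and at such signals background cannot be separated from low expression.

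**Figure D3:**
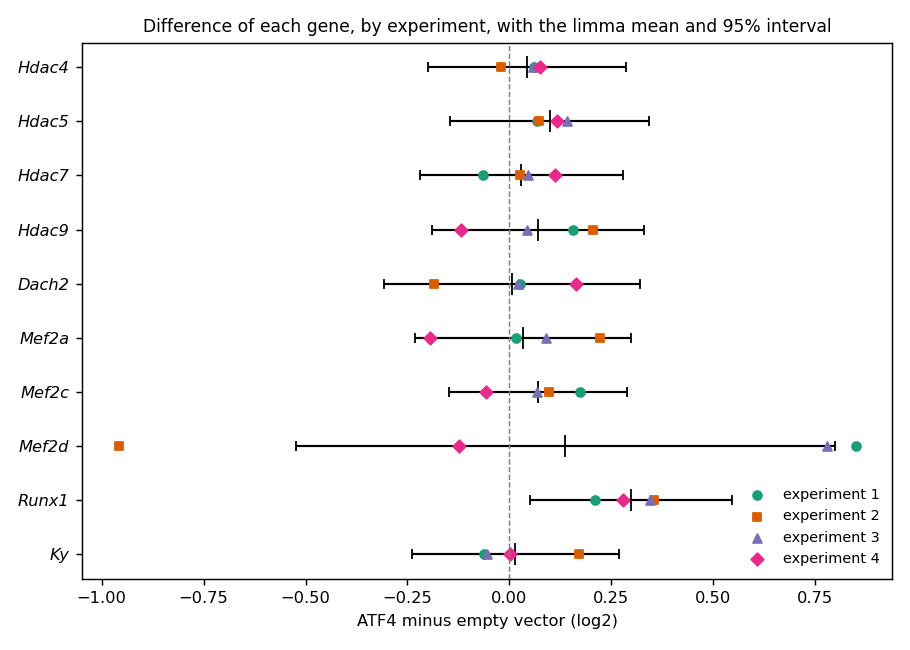
Log2 difference, ATF4 minus empty vector, for the 10 genes, with 1 coloured point per experiment, a black tick at the limma estimate and bars for its 95% interval. The interval of Runx1 (0.05 to 0.55) lies above 0, and the intervals of the other 9 genes include 0, that of Mef2d being the widest.

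None of the 3 MEF2 genes passed the threshold either. Mef2c, the family member needed for sarcomere assembly, had signals of 9.13, 9.01, 8.99 and 8.92 in the ATF4 muscles and 8.96, 8.91, 8.93 and 8.97 in the empty vector muscles. ATF4 was higher in experiments 1 to 3 and lower in experiment 4. The difference of 0.07 (SE 0.09, limma adjusted p = 0.918) had an interval in fold terms from 0.902 to 1.22. It was 0.04 without experiment 1 and 0.11 without experiment 4.

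Mef2a had signals of 6.51, 6.55, 6.75 and 6.60 in the ATF4 muscles and 6.49, 6.32, 6.66 and 6.80 in the empty vector muscles. The largest differences were of opposite sign, 0.22 in experiment 2 and -0.20 in experiment 4, and the mean was 0.03 (SE 0.11, limma adjusted p = 0.975). The sign of this mean turned without experiment 2, at -0.03.

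Mef2d was the least precise of the 10. Signals were 4.02, 2.48, 4.22 and 3.94 in the ATF4 muscles and 3.17, 3.44, 3.44 and 4.06 in the empty vector muscles. Experiments 1 and 3 were higher with ATF4 by 0.85 and 0.78, and experiments 2 and 4 were lower, differing by -0.96 and -0.12. The mean difference of 0.14 (SE 0.29, limma adjusted p = 0.952) left an interval in fold terms from 0.695 to 1.74. Without experiment 2 it was 0.50, and without experiment 1 or 3 it was -0.10 or -0.08. Only 19.4% of probe sets were as dim as this one or dimmer. A brighter probe set annotated to Mef2d and AW047730 together, which was not used for Mef2d, gave 6.17, 5.80, 5.59 and 6.07 in the ATF4 muscles and 5.81, 5.83, 5.72 and 6.05 in the empty vector muscles. It differed by 0.05 (SE 0.12, limma adjusted p = 0.957), with experiment 2 at -0.03.

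Ky had signals of 5.28, 5.29, 5.07 and 5.48 in the ATF4 muscles and 5.34, 5.12, 5.12 and 5.48 in the empty vector muscles. The legs were almost equal in experiment 4, and the differences in experiments 1 and 3 were negative. The mean difference was 0.01 (SE 0.11, limma adjusted p = 0.992). Among 10 measured partners of KY and Z-disc repair proteins 8 were higher and 2 lower, with a median of 0.07, and 0 passed. Xirp1, an actin-binding protein of injured fibres, differed by 0.33 (SE 0.12), the LIM protein gene Fhl1 by 0.26 (SE 0.11), the small heat shock protein gene Hspb8 by 0.24 (SE 0.12) and the Z-disc gene Ldb3 by 0.11 (SE 0.10).

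Leaving aside Runx1 and Mef2d, the differences of the other 8 genes lay between 0.0061 and 0.10 with an SE from 0.09 to 0.14. Their 95% intervals, each taken alone, ran in fold terms from 0.807 at the lowest to 1.27 at the highest. Dach2 is among the 8, and since its signal cannot be separated from background, its interval sets no limit on a change of its transcript. For the others, the lowest bound was 0.847, for Ky, and the highest 1.27, for Hdac5. A larger average change of these others over the whole muscle lies outside their intervals. Phosphorylation or nuclear export of the proteins was not measured.

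Genes that act on class IIa deacetylases gave no call. Of 17 measured kinases and binding chaperones of these deacetylases 5 were higher and 12 lower, with a median of -0.07, and 0 passed or had an unadjusted p under 0.05. Prkaa2, a catalytic subunit of the energy-sensing kinase AMPK, was lower in 4 of 4 experiments at -0.20 (SE 0.10). In this list 2 genes were lower and 1, Sik1, was higher in 4 of 4 experiments, where 6.66% and 8.35% of all genes were. The calcium-dependent kinase genes Camk2d and Camk4 differed by 0.25 (SE 0.14) and -0.23 (SE 0.15), and the salt-inducible kinase gene Sik1 by 0.14 (SE 0.12).

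Of 11 measured deacetylases of the other classes and their corepressors 4 were higher and 7 lower, with a median of -0.05, and again 0 passed or had an unadjusted p under 0.05. Hdac2, a class I enzyme, was lower in 4 of 4 experiments, where 6.66% of all genes were, at -0.25 (SE 0.12). Mta2, of the NuRD complex, differed by -0.15 (SE 0.11), Hdac11 by -0.15 (SE 0.16) and Hdac8 by -0.12 (SE 0.13).

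Partners and targets of MEF2 in muscle were split, with 10 of 22 higher, 12 lower and a median of -0.04 that was 0.0041 with quantile normalization. None passed, and 3 higher and 0 lower genes had an unadjusted p under 0.05, where 3.23% and 2.77% of all probe sets did. These 3 were Srpk3, a muscle kinase gene driven directly by MEF2, at 0.45 (SE 0.12), the small heat shock protein gene Hspb7 at 0.41 (SE 0.11), and Xirp1. In Srpk3 and Hspb7 all ATF4 arrays were above all empty vector arrays, as in 1.47% of all genes. Mef2b, the remaining MEF2 family gene, differed by 0.23 (SE 0.15).

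Genes listed for the HDAC4 and myogenin branch of denervation had a median difference of 0.24, against 0.02 over all genes. The list was not limited to genes downstream of Hdac4 and Dach2, as it also holds Dach1, a relative of Dach2. It was chosen with earlier results of these data known, so the shares over all genes and probe sets beside it are no test. Of 18 measured genes of this branch 14 were higher and 4 lower, and 0 passed the threshold (smallest limma adjusted p = 0.233). At an unadjusted p under 0.05, 9 were higher and 1 lower, against 3.23% and 2.77% of all probe sets. Chrna1, the acetylcholine receptor α subunit, differed by 1.07 (SE 0.17), the growth arrest gene Gadd45a by 0.71 (SE 0.14), the adhesion molecule Ncam1 by 0.64 (SE 0.15) and the receptor δ subunit Chrnd by 0.43 (SE 0.12). Each of these 4 was higher in 4 of 4 experiments. Among the 18, 8 were higher and 3 lower in 4 of 4 experiments, where 8.35% and 6.66% of all genes were.

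Markers of other cell types in the muscle are given beside this branch. Over all genes 54.5% were higher. At an unadjusted limma p under 0.05, 3.23% of all probe sets were higher and 2.77% lower. Of 10 fibroblast markers 7 were higher, with a median of 0.22, and 3 were higher at an unadjusted p under 0.05. Their mean differed by 0.23, -0.05, -0.0055 and 0.57 in experiments 1 to 4, and summed on the linear scale they ranged from 1338 to 1634 with ATF4 and from 1300.4 to 1510 with empty vector. Of 9 Schwann cell and nerve markers 7 were higher, with a median of 0.08, and 3 were higher at an unadjusted p under 0.05. Their mean differed by 0.10, 0.13, -0.01 and 0.38, and their sums ranged from 216 to 254 with ATF4 and from 206 to 243 with empty vector.

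Among 9 satellite cell markers 8 were higher, with a median of 0.09, where 54.5% of all genes were higher. At an unadjusted limma p under 0.05, 1 was higher, against 3.23% of all probe sets. The satellite cell mean differed by 0.0054, 0.02, 0.10 and 0.33 in experiments 1 to 4. Its sums ran from 202 to 226 with ATF4 and from 179 to 214 with empty vector. Over all genes the median difference was -0.01, 0.0016, 0.01 and 0.08 in these experiments. Smooth muscle and pericyte markers were split, 4 higher and 4 lower of 8 with a median of -0.0089. At an unadjusted limma p under 0.05, 3 of the 8 were lower, against 2.77% of all probe sets. The mean of the 8 differed by -0.13, -0.07, -0.11 and -0.12. Sums ran from 423 to 531 with ATF4 and from 535 to 636 with empty vector. This was the 1 marker sum of these 4 whose groups did not overlap. Bright genes weigh most in such sums, and Rgs5 was by far the brightest of the 8. Its mean was 8.00 with ATF4 and 8.45 with empty vector (log2), so the gap between the sums does not describe the 8 markers as a set. No marker of these cells passed the threshold. The mean of the 18 branch genes differed by 0.20, 0.19, 0.33 and 0.26 in the same experiments. The part of these cells in the result was not tested.

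Myog and Dach1, the target and the closest relative of Dach2, are given by a choice made after seeing their values, as is Fbxo32. Myog differed by 0.41 (SE 0.13, limma adjusted p = 0.754), with 0.15, 0.27, 0.55 and 0.66 in experiments 1 to 4. All its ATF4 arrays were above all its empty vector arrays, as in 1.47% of all genes. Dach1 differed by 0.27 (SE 0.11, limma adjusted p = 0.822), with 0.25, 0.21, 0.24 and 0.36. Over the same experiments Dach2 differed by 0.03, -0.19, 0.02 and 0.16, and the mean of the 4 class IIa deacetylases by 0.05, 0.07, 0.07 and 0.05. Fbxo32, an atrophy ubiquitin ligase that myogenin activates in denervated muscle, was the 1 gene lower at an unadjusted p under 0.05, at -0.38 (SE 0.15). It differed by -0.02, -0.16, -0.48 and -0.86 in experiments 1 to 4. All its ATF4 arrays were below all its empty vector arrays, as in 0.713% of all genes. Whether the branch differed from the 10 genes was not tested, since both were chosen with results of these arrays known.

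**Figure D4:**
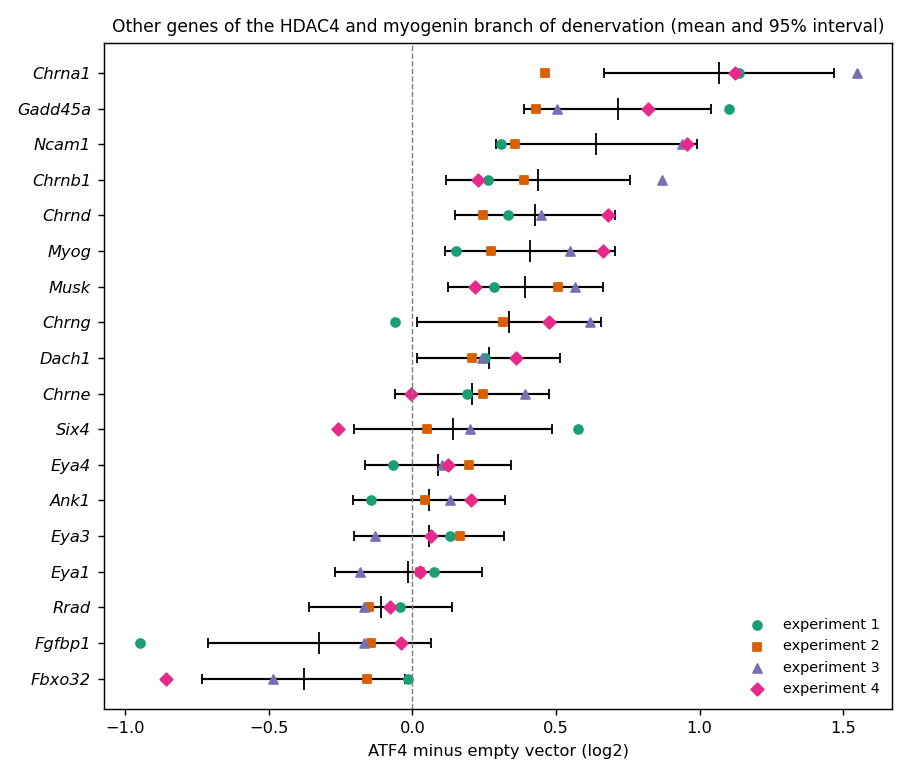
Log2 difference, ATF4 minus empty vector, for 18 genes of the HDAC4 and myogenin branch of denervation, ordered by their mean, with 1 point per experiment and the limma 95% interval. Chrna1 is at the top at 1.07 and Fbxo32 at the bottom at -0.38.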

How the data were processed

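The authors deposited log2 values made with RMA, per the submitters' processing notes, which give no version or settings. The notes also name hg18 without its role. That the scale is log2 was inferred from the array medians, 4.29 to 4.44. The number of arrays limits the precision. Of 16755 probe sets 14996 have 1 gene, 1019 several and 740 none in the platform annotation, and 14941 matched the GRCm38.p6 gene table.

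All probe sets were fitted with limma 3.58.1 in R 4.3.3, with experiment as a fixed term and a variance prior that follows the mean (two-sided, Benjamini-Hochberg). Arrays were paired because the series design compares both legs of the same mice. The deviations of paired arrays from their group means correlated at 0.07, 0.31, 0.55 and 0.05 in experiments 1 to 4. Tested on simulated data (16755 probe sets, 200 changed), the fit recovered 12.1% of 1.5-fold and 72.4% of 2-fold changes, with 5.07% false calls.

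The 10 genes and all gene lists were chosen with earlier results of these data known. Named genes are the 10, Atf4, the 4 of smallest p per list and the 5 nearest to Runx1, and, by a choice made after seeing their values, Myog, Dach1 and Fbxo32. The 6 lists hold 110 entries, 87 of them measured. Alternatives were other blocks (statmod 1.5.0), priors, scalings, filters, weights and thresholds, and leaving out each experiment.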

Additional observations from a re-analysis of the deposited data

Results flagged for a closer look

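Of 84 groups of 4 arrays, covering the named genes, 2 held 1 array far from its group; chance would flag about 5% of groups. Mef2d stood at 2.48 with ATF4 in experiment 2, against 3.94 to 4.22 on the other 3 ATF4 arrays. Mta2 stood at 5.14 with ATF4 in experiment 1, against 4.91 to 4.95 on the others.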

How the results depend on the processing

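Of 126 values of the 10 genes under 13 alternative fits, 113 kept their sign and their side of the threshold, 13 changed sign and 0 passed. The count of the 10 genes past the threshold was 0 in every fit and at an adjusted p under 0.1. With median centring Hdac7 was at -0.0083, Dach2 at -0.032, Mef2a at -0.0044 and Ky at -0.024. Dach2 was at -0.053 with quantile normalization and -0.0048 with array weights, where Ky was at -0.0084. Without replicate 1, 2, 3 or 4 the values that changed sign lay between -0.10 and -0.00057: Dach2 from -0.047 without replicate 4 to 0.070 without replicate 2, Mef2d from -0.10 to 0.50, Mef2a from -0.030 to 0.11 and Ky from -0.038 to 0.039. Each change of sign was within its SE, and the cause was not tested. Runx1 stayed between 0.26 and 0.33.

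Over all probe sets, where 3 passed, the count was 13 with a random replicate block, 0 without the variance trend and 0 with median centring, 7 without the dimmest 25%, 12 without the dimmest 50%, 18 with array weights, 7 at an adjusted p under 0.1, and 0 to 2 without 1 replicate. Without the replicate block it was again 3, no call among the 10 genes changed, and 609 probe sets had an unadjusted p under 0.05, against 1006 with it. Dach2 and Mef2d were too dim for both filters. Averaging probe sets per gene gave no other value, as each of the 10 has 1. Medians of the 6 lists moved by less than their SD over experiments; that of MEF2 partners turned positive with quantile normalization and without replicate 4 (0.01). Signal near background limits Dach2 and Mef2d.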
